A study of Mus musculus with 12 samples.

Results

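The genes described here are 47 genes of TGF-beta, BMP and activin signalling in mouse: 14 ligands, 11 receptors, 8 antagonists, 6 Smads, 4 inhibitory Smads and Smurfs, and 4 latent TGF-beta binding proteins. They were chosen by symbol from what the proteins are known to do, with earlier results of these data known. The comparison of Gdf6 between the lines was set beforehand. Each member was found on the array through the RefSeq accession of its probes. All 47 had a probe, with 63 probes between them, out of 17178 genes that could be named on the array. Of these, 40 members were among the 12300 genes bright enough to test. The cells were C3H/10T1/2, a line of mouse embryonic fibroblasts that can be turned into muscle by MyoD, and RNA was measured on 12 single-colour Agilent arrays.

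There were 4 groups of 3 arrays. The shSix4 MyoD cells stably carried a hairpin against Six4 and were infected with a pBABE retrovirus expressing Flag- and myc-tagged MyoD. The shSix4 empty-vector cells carried the same hairpin and received pBABE without MyoD. The shLuc MyoD cells carried a hairpin against luciferase, a gene that mouse cells lack, and received the MyoD virus. The shLuc empty-vector cells carried the luciferase hairpin and received the empty virus. All 12 samples were therefore hairpin lines infected with a retrovirus, grown in 2% horse serum for 24 h, with 300 ng of RNA labelled per array. Whether each hairpin line was 1 clone or a mixed population, and whether the 3 replicates were separate cultures, are not stated in the labels, so the p-values measure the spread between these samples only, which may be technical.

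TGF-beta, activins, BMPs and GDFs are secreted dimers that bring together type II and type I receptor kinases on the cell surface. The receptors phosphorylate Smad proteins, Smad2 and Smad3 for TGF-beta and activin and Smad1, Smad5 and Smad9 for BMPs, which enter the nucleus with Smad4 and switch target genes. Antagonists such as noggin and follistatin bind the ligands, latent TGF-beta binding proteins hold TGF-beta in the matrix, and Smad6, Smad7 and the Smurf ubiquitin ligases damp the signal. In muscle, TGF-beta, BMPs, activin and myostatin are known to restrain myoblast differentiation or muscle growth, and MyoD and Six4 are transcription factors of the muscle programme.

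Levels below are log2 of the background-corrected signal minus the array's 75th percentile, so a negative level is a signal below that percentile and does not mean that the gene was off. Levels of different genes come from different probes and are not set against each other. Genes were tested with limma and Benjamini-Hochberg adjustment over all 12300 genes at a threshold of 0.05, first from the group means alone. Replicate 1, 2 and 3 of every group lay together on slide 1, 2 and 3, and samples of 1 slide deviated together, so a second fit took the slide as a block, and its p is given beside the first for the members the results turn on. Errors of differences are standard errors from the fit without the block, with n = 3 arrays per group. In these bulk samples, fewer cells of a type and less RNA per cell cannot be told apart.

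The array readings of the labels themselves were as follows. Six4 was at -3.03, -2.93 and -1.54 in shSix4 MyoD cells, -4.10, -3.00 and -2.82 in shSix4 empty-vector cells, -1.45, -1.69 and -0.85 in shLuc MyoD cells, and -2.62, -2.90 and -1.64 in shLuc empty-vector cells. It was lower in shSix4 cells on every slide with either vector, but the groups overlapped, and the difference passed the test only with MyoD and only with the block (-1.17 ± 0.49, adjusted p = 0.558 and 0.0424 with the block; -0.92 ± 0.49, adjusted p = 0.999 and 0.168 with the block, with empty vector). Myod1, the gene of MyoD, was at -2.17, -0.86 and -0.23 in shSix4 MyoD cells, -4.37 and -2.01 in shSix4 empty-vector cells, 0.07, -0.23 and 1.23 in shLuc MyoD cells, and -4.77 and -2.57 in shLuc empty-vector cells, with no value for replicate 3 of either empty-vector group. It differed with MyoD by 2.10 ± 0.90 in shSix4 cells, where the groups overlapped (adjusted p = 0.482, 0.0943 with the block), and rose by 4.03 ± 0.90 in shLuc cells (0.0315, 0.00257 with the block). With MyoD it differed by -1.45 ± 0.81 between the shSix4 and shLuc lines, lower in shSix4 cells on all 3 slides (0.837, 0.152 with the block). The groups almost touched, with the highest shSix4 value at -0.228 and the lowest shLuc value at -0.226. Whether the Myod1 probe reads the MyoD of the virus was not checked. All 15 skeletal muscle markers were above background with MyoD in each line. Their summed signal, as log2 relative to the 75th percentile, was 8.01 to 8.81 in shSix4 MyoD cells, 3.50 to 5.81 in shSix4 empty-vector cells, 9.48 to 10.17 in shLuc MyoD cells and 4.61 to 5.49 in shLuc empty-vector cells. All 10 fibroblast markers were above background in every group. Of 6 endothelial markers, Pecam1, Cdh5, Kdr and Tie1 were never above background, and of leukocyte markers Ptprc never was. The part that the Myod1 and muscle marker levels have in the differences below was not tested.

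Among the 40 members tested, the BMP-family ligand Gdf6 was the only member to pass the test without the block. Gdf6, which is known for its part in joint, skull and eye development, was higher with MyoD and lower in the shSix4 line, by up to 3.49-fold. The other members differed by less than 2-fold with MyoD in each line. With the slides as a block, 13 of 40 members changed with MyoD in at least 1 line, where 26.3% of all genes did. Of these, 4 changed in the same direction in each line, where 7.64% of all genes did: Gdf6, Tgfb3 and Acvr2a rose and Inhba fell.

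Gdf6 was measured by 1 probe, with levels of -3.95, -3.75 and -3.86 in shSix4 MyoD cells and -5.53, -4.75 and -5.00 in shSix4 empty-vector cells. In the other line it was at -2.69, -2.75 and -2.51 in shLuc MyoD cells and -3.27, -3.07 and -3.54 in shLuc empty-vector cells. The 4 groups did not overlap at all and lay in the order shLuc MyoD, shLuc empty vector, shSix4 MyoD, shSix4 empty vector from high to low. The line difference was thus wide enough that the shSix4 cells with MyoD still lay below the shLuc cells without it.

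MyoD went with a rise of Gdf6 of 1.24 ± 0.22 on the log2 scale in shSix4 cells, 2.36-fold, with an adjusted p of 0.00761 (0.00236 with the block). In shLuc cells the difference was 0.64 ± 0.22, with an adjusted p of 0.122 that fell to 0.0290 with the block. The difference between those responses was 0.60 ± 0.31 with an adjusted p of 1.00, and its 95% interval was -0.08 to 1.27, so a larger response in shSix4 cells was not shown. Between the lines, Gdf6 differed by -1.80 ± 0.22 with empty vector, 3.49-fold lower in shSix4 cells, with an adjusted p of 0.0201 (0.00456 with the block). With MyoD it differed by -1.20 ± 0.22, 2.30-fold lower, with an adjusted p of 0.0545 (0.0101 with the block). On slides 1, 2 and 3 the line difference was -2.25, -1.69 and -1.47 with empty vector and -1.27, -1.0 and -1.35 with MyoD.

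Gdf6 was a dim probe. Its processed signal, which is background-corrected, was 46.7, 52.6 and 59.7 in shSix4 MyoD cells, 15.6, 31.2 and 28.2 in shSix4 empty-vector cells, 108.1, 104.1 and 173.6 in shLuc MyoD cells, and 68.8, 48.6 and 81.2 in shLuc empty-vector cells. Before correction, the median spot signal was 55.5 to 69 in shSix4 empty-vector cells and 86.5 to 224 in the other groups, against a local background of 20 to 28. It was well above background on 11 of 12 arrays, the exception being replicate 1 of the shSix4 empty-vector cells. The line difference with empty vector lost its call without replicate 1 or 2 of the shLuc empty-vector cells (adjusted p = 0.154 and 0.158), replicate 3 of the shSix4 empty-vector cells (0.0918) or replicate 2 or 3 of the shSix4 MyoD cells (0.0502 and 0.0599). With a normexp background, another background correction, the MyoD response was 0.14 in shSix4 cells (adjusted p = 1.00) and 0.18 in shLuc cells, and the line difference with empty vector was -1.12 (adjusted p = 0.880).

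**Figure D1:**
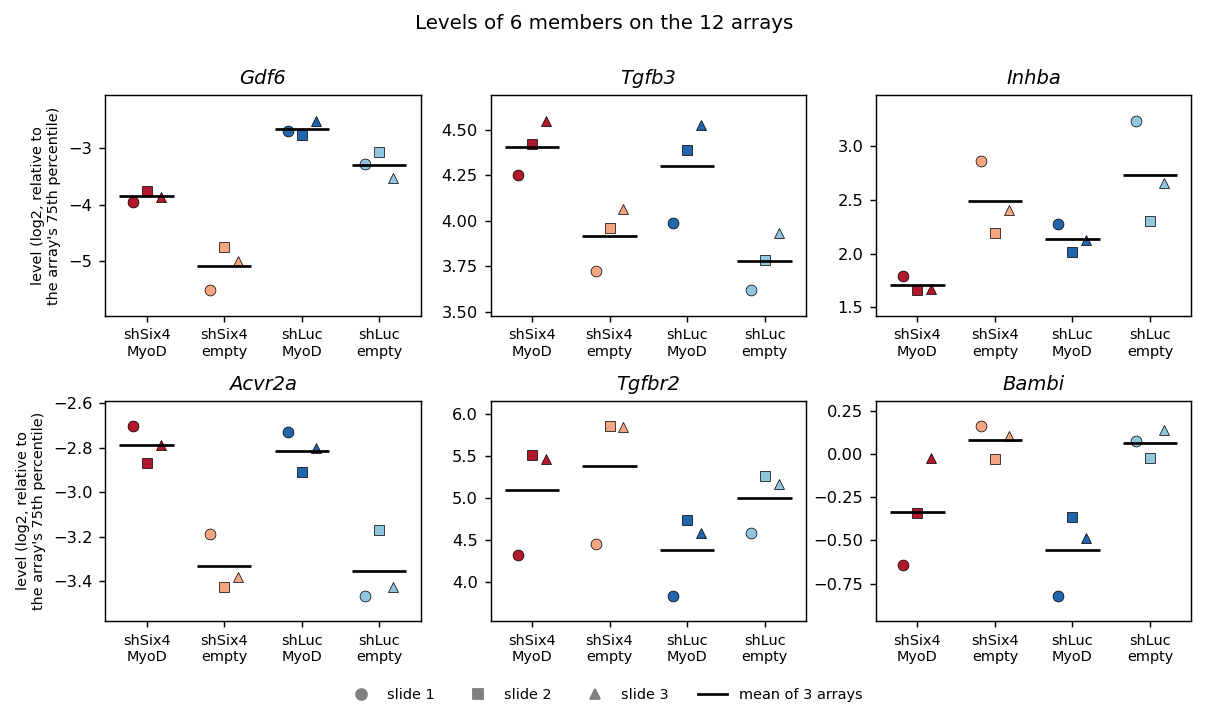
Levels of Gdf6, Tgfb3, Inhba, Acvr2a, Tgfbr2 and Bambi on the 12 arrays, in log2 relative to the array's 75th percentile, with 1 panel per gene and 1 column per group. Circles, squares and triangles are slides 1, 2 and 3, and bars are means of 3 arrays. The 4 groups of Gdf6 do not overlap, while slide 1 lies lowest in every group for Tgfbr2.

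With MyoD in shSix4 cells, 1 of 40 members was called without the block, Gdf6, where 2.89% of all genes were called. In shLuc cells 0 of 40 members were called, against 6.28% of all genes, and 9 members had an unadjusted limma p under 0.05, against 19.3% of all genes. With the block, 5 members were called in shSix4 cells (3 higher, 2 lower, against 5.7% and 2.6% of all genes) and 12 in shLuc cells (4 higher, 8 lower, against 9.89% and 15.7%). All of these moved the same way on all 3 slides. In shSix4 cells 4 members had an unadjusted limma p under 0.05, against 9.77% of all genes. MyoD and empty-vector arrays did not overlap for 3 members higher and 2 lower in shSix4 cells (7.19% and 7.39% of all genes) and for 4 higher and 7 lower in shLuc cells (10.2% and 16%). The median member difference was -0.13 in shSix4 cells and -0.21 in shLuc cells, against -0.06 and -0.14 over all genes. Without the block, the members' share of calls was no higher than that of all genes in either line.

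**Figure D2:**
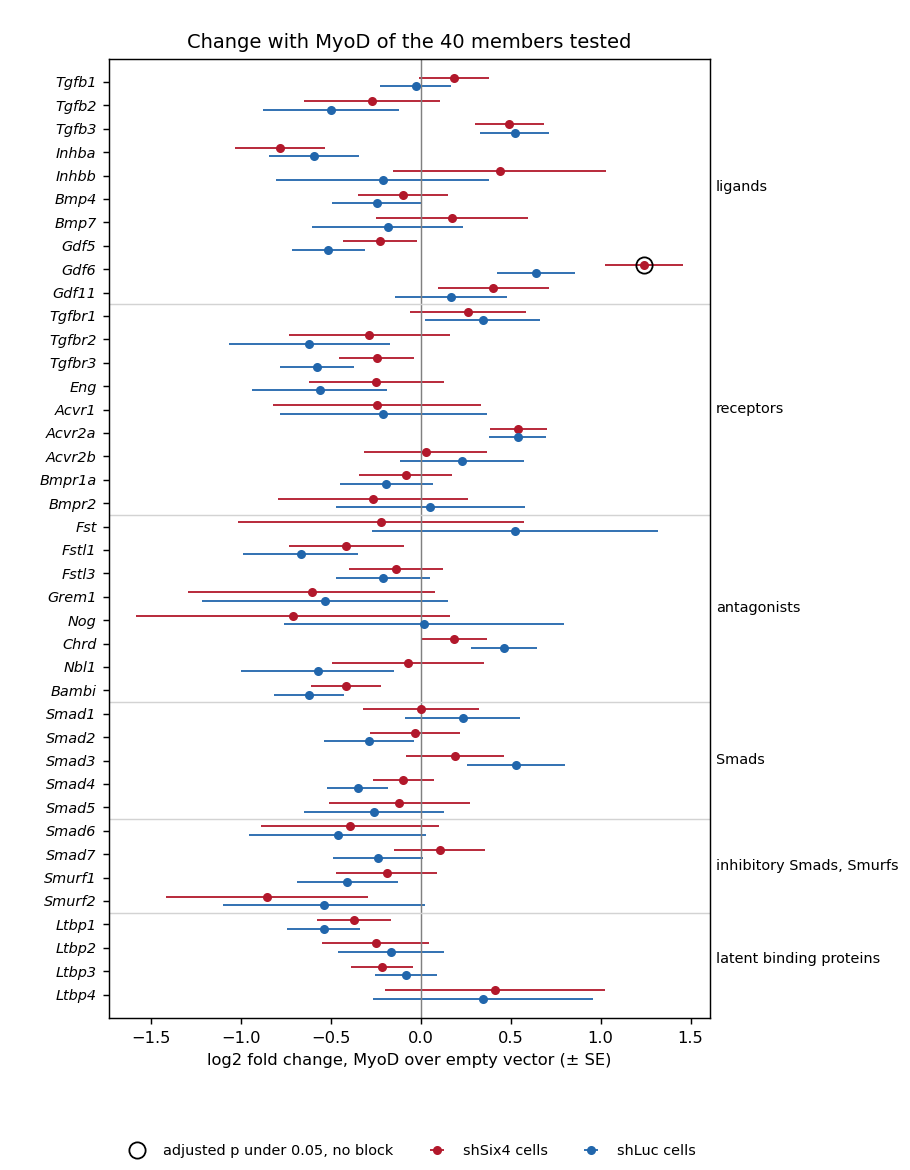
Difference between MyoD and empty vector for the 40 members tested, in log2, ordered by role, with shSix4 cells in red and shLuc cells in blue. Points are fitted differences, bars are 1 standard error and the ring marks the 1 call made without the block, Gdf6 in shSix4 cells. Differences run from -0.85 to 1.24 in shSix4 cells and from -0.67 to 0.64 in shLuc cells.

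Of the 14 ligands, 10 were tested. Besides Gdf6, Tgfb3 and Inhba passed with the block in each line, and Gdf5 in shLuc cells. Tgfb3, 1 of the TGF-beta isoforms, was at 4.25, 4.42 and 4.55 in shSix4 MyoD cells, 3.72, 3.96 and 4.06 in shSix4 empty-vector cells, 3.99, 4.39 and 4.52 in shLuc MyoD cells, and 3.62, 3.79 and 3.93 in shLuc empty-vector cells. Every MyoD array lay above every empty-vector array of its line. Its difference was 0.49 ± 0.19 in shSix4 cells (adjusted p = 0.361, 0.0201 with the block) and 0.52 ± 0.19 in shLuc cells (0.157, 0.00743 with the block). Inhba, which encodes the subunit of activin A, went the other way.

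Inhba was at 1.79, 1.66 and 1.67 in shSix4 MyoD cells, 2.86, 2.19 and 2.41 in shSix4 empty-vector cells, 2.28, 2.01 and 2.12 in shLuc MyoD cells, and 3.24, 2.30 and 2.66 in shLuc empty-vector cells. Its MyoD and empty-vector arrays did not overlap in either line, and slide 1 gave the widest gap in each. The difference was -0.78 ± 0.25 in shSix4 cells (adjusted p = 0.193, 0.0144 with the block) and -0.59 ± 0.25 in shLuc cells (0.222, 0.0227 with the block), and the shLuc value was -0.34 without replicate 1 of the empty-vector cells. Gdf5, a close relative of Gdf6 that also acts in joints, was at -3.49, -2.97 and -2.95 in shSix4 MyoD cells, -3.06, -3.01 and -2.66 in shSix4 empty-vector cells, -3.18, -2.89 and -2.76 in shLuc MyoD cells, and -2.35, -2.46 and -2.48 in shLuc empty-vector cells. The groups overlapped in shSix4 cells and did not in shLuc cells. Gdf5 differed by -0.51 ± 0.20 in shLuc cells (0.193, 0.0356 with the block) and by -0.23 ± 0.20 in shSix4 cells (0.922, 0.410 with the block), and the difference between those responses was not called.

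The remaining 6 ligands tested, Tgfb1, Tgfb2, Inhbb, Bmp4, Bmp7 and Gdf11, passed neither fit with MyoD in either line. Tgfb2 had the largest difference among them in shLuc cells, -0.50 ± 0.38, and Inhbb in shSix4 cells, 0.44 ± 0.59. Bmp7 was above background on 9 of 12 arrays. Bmp4, a main BMP of mesenchymal cells, differed by -0.10 ± 0.25 in shSix4 cells and -0.24 ± 0.25 in shLuc cells.

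Of the 11 receptors, 9 were tested. Acvr2a, a type II receptor for activins and myostatin, passed with the block in each line, and Tgfbr2, Tgfbr3 and Eng in shLuc cells. Acvr2a was at -2.70, -2.87 and -2.79 in shSix4 MyoD cells, -3.19, -3.43 and -3.38 in shSix4 empty-vector cells, -2.73, -2.91 and -2.80 in shLuc MyoD cells, and -3.46, -3.17 and -3.43 in shLuc empty-vector cells. The ranges of the lines overlapped with each vector, and all 6 MyoD arrays lay above all 6 empty-vector arrays. The difference was 0.54 ± 0.16 in shSix4 cells (adjusted p = 0.132, 0.0309 with the block) and 0.54 ± 0.16 in shLuc cells (0.0737, 0.0151 with the block). With a normexp background these were 0.07 and 0.16, and in shSix4 cells the authors' deposited table of normalized values gave 0.12. A second probe of Acvr2a gave 0.17 in shSix4 cells and 0.42 in shLuc cells.

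Tgfbr2, the type II receptor of TGF-beta, was at 4.32, 5.51 and 5.46 in shSix4 MyoD cells, 4.45, 5.86 and 5.84 in shSix4 empty-vector cells, 3.83, 4.73 and 4.58 in shLuc MyoD cells, and 4.58, 5.26 and 5.17 in shLuc empty-vector cells. Slide 1 was the lowest in every group, and the MyoD and empty-vector arrays of each line overlapped. Its difference with MyoD was -0.62 ± 0.45 in shLuc cells (adjusted p = 0.509, 0.0229 with the block) and -0.29 ± 0.45 in shSix4 cells (0.994, 0.322 with the block). Within slides 1, 2 and 3 the shLuc difference was -0.74, -0.53 and -0.59. Without the block it was -0.34 when replicate 1 of the shLuc MyoD cells was left out, -0.16 with a normexp background and -0.39 with plain background subtraction.

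Tgfbr3, or betaglycan, presents TGF-beta to its receptors and was at -4.55, -5.25 and -5.01 in shSix4 MyoD cells, -4.89, -4.56 and -4.62 in shSix4 empty-vector cells, -5.26, -5.58 and -5.69 in shLuc MyoD cells, and -4.88, -4.97 and -4.95 in shLuc empty-vector cells. The shLuc groups did not overlap, while on slide 1 the shSix4 difference ran the other way (0.34). It differed by -0.58 ± 0.21 in shLuc cells (adjusted p = 0.149, 0.0434 with the block) and -0.24 ± 0.21 in shSix4 cells (0.899, 0.457 with the block), and was above background on 10 of 12 arrays. With a normexp background the shLuc difference was -0.32.

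Eng, or endoglin, a co-receptor best known from endothelium, was at 0.65, 0.06 and -0.16 in shSix4 MyoD cells, 1.10, -0.01 and 0.20 in shSix4 empty-vector cells, 0.11, -0.31 and -0.65 in shLuc MyoD cells, and 0.86, 0.26 and -0.30 in shLuc empty-vector cells. The groups overlapped, with slide 1 highest in each. Eng differed by -0.56 ± 0.37 in shLuc cells (0.472, 0.0300 with the block) and -0.25 ± 0.37 in shSix4 cells (0.992, 0.385 with the block). The shLuc value was -0.27 without replicate 1 and -0.85 without replicate 3 of the empty-vector cells. Of the other 5 receptors tested, Tgfbr1, Acvr1, Acvr2b, Bmpr1a and Bmpr2, none passed with MyoD in either fit. Tgfbr1 had the largest difference of these in shLuc cells, 0.34 ± 0.32.

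Promoter sequence is shown for 3 of the members that changed with MyoD when the block was used, Acvr2a, which rose, and Inhba and Eng, which fell. Each run is the 250 bases before the annotated start, from RefSeq on GRCm38.p6, plus strand: chr2:48813859-48814108 for Acvr2a, chr13:16011601-16011850 for Inhba and chr2:32646345-32646594 for Eng. Capitals mark the E-box CANNTG, the motif bound by MyoD and other basic helix-loop-helix factors, which reads the same on both strands.
Acvr2a: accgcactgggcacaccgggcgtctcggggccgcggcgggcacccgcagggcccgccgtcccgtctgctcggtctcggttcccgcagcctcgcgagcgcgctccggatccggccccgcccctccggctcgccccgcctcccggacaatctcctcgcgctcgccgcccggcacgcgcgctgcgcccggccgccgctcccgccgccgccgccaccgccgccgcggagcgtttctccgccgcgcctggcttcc
Inhba: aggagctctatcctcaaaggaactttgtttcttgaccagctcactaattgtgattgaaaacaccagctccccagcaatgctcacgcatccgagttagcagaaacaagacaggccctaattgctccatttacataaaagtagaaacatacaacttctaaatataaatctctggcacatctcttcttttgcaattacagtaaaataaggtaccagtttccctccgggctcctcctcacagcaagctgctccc
Eng: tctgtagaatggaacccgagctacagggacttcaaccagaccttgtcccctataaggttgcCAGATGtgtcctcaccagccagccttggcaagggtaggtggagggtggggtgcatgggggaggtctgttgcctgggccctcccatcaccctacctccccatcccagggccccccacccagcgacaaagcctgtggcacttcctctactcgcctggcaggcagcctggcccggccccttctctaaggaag

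The Acvr2a window was 82.0% G and C and the Inhba window 43.2%, and neither held the motif. The Eng window was 62.4% G and C and held CAGATG, 189 bases before the start. The RefSeq table held windows for 35 of the 47 members. Of 43 member windows, 20 held an E-box (46.5%), against 21753 of all 32851 windows (66.2%). Of the 13 members called with MyoD with the block, 8 were in the table and 1 of these, Eng, had the motif in its window. A match is a description of the letters, and a window without one says only that these letters were not there.

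All 8 antagonists were tested. With the block, Chrd rose and Bambi and Fstl1 fell with MyoD in shLuc cells, and none passed in shSix4 cells. Chrd, or chordin, which binds BMPs, was at -1.64, -1.58 and -1.22 in shSix4 MyoD cells, -1.83, -1.68 and -1.48 in shSix4 empty-vector cells, -1.40, -1.49 and -1.53 in shLuc MyoD cells, and -1.81, -2.18 and -1.83 in shLuc empty-vector cells. The shLuc groups did not overlap and the shSix4 groups did. Chrd differed by 0.46 ± 0.18 in shLuc cells (adjusted p = 0.192, 0.0421 with the block) and by 0.18 ± 0.18 in shSix4 cells (0.939, 0.486 with the block). The shLuc difference was 0.04 with a normexp background.

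Bambi, a membrane decoy receptor without a kinase, was at -0.64, -0.34 and -0.02 in shSix4 MyoD cells, 0.16, -0.03 and 0.11 in shSix4 empty-vector cells, -0.82, -0.36 and -0.49 in shLuc MyoD cells, and 0.08, -0.02 and 0.14 in shLuc empty-vector cells. It was lower with MyoD on all 3 slides in each line. The difference was -0.62 ± 0.20 in shLuc cells (adjusted p = 0.0980, 0.0204 with the block) and -0.42 ± 0.20 in shSix4 cells (0.544, 0.149 with the block). Fstl1, a secreted follistatin-like glycoprotein, was at 6.06, 7.36 and 6.97 in shSix4 MyoD cells, 6.80, 7.37 and 7.47 in shSix4 empty-vector cells, 6.16, 6.51 and 6.74 in shLuc MyoD cells, and 6.98, 7.28 and 7.16 in shLuc empty-vector cells. The shLuc groups did not overlap. Fstl1 differed by -0.67 ± 0.32 in shLuc cells (0.288, 0.0312 with the block; -0.43 with a normexp background) and -0.41 ± 0.32 in shSix4 cells (0.861, 0.224 with the block).

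The antagonists Nog, Fst and Grem1 differed more between slides than between groups. Slide and replicate number coincide on every array, so their effects cannot be told apart. Noggin (Nog), which binds BMPs, averaged -1.94, -4.05 and -3.47 on slides 1, 2 and 3. Follistatin (Fst), which binds activin and myostatin, averaged 0.37, 2.41 and 1.68. Gremlin 1 (Grem1), another BMP antagonist, averaged 2.74, 1.36 and 1.16. Slide 1, which was scanned on another day than slides 2 and 3, was high for Nog and Grem1 and low for Fst. The range over slide means was 2.10 for Nog, 2.04 for Fst and 1.58 for Grem1, against a median of 0.634 over the 40 members and 0.546 over all genes. Members of other roles came close to Grem1, among them Ltbp4 (1.48), Acvr1 (1.46), Bmpr2 (1.40), Smurf2 (1.39) and Inhbb (1.35). None of Nog, Fst and Grem1 was called with MyoD in either line or fit. The 95% interval of the Fst response was -1.97 to 1.54 in shSix4 cells and -1.23 to 2.28 in shLuc cells, which include 2-fold in either direction. Among the other antagonists, Fstl3, which binds activin and myostatin, and the BMP antagonist Nbl1 were not called either, and Nbl1 differed by -0.07 ± 0.42 in shSix4 cells and -0.57 ± 0.42 in shLuc cells. Nog has no value for replicate 2 of the shSix4 empty-vector cells, whose spot was marked as an outlier, and its fit rests on 11 arrays.

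**Figure D3:**
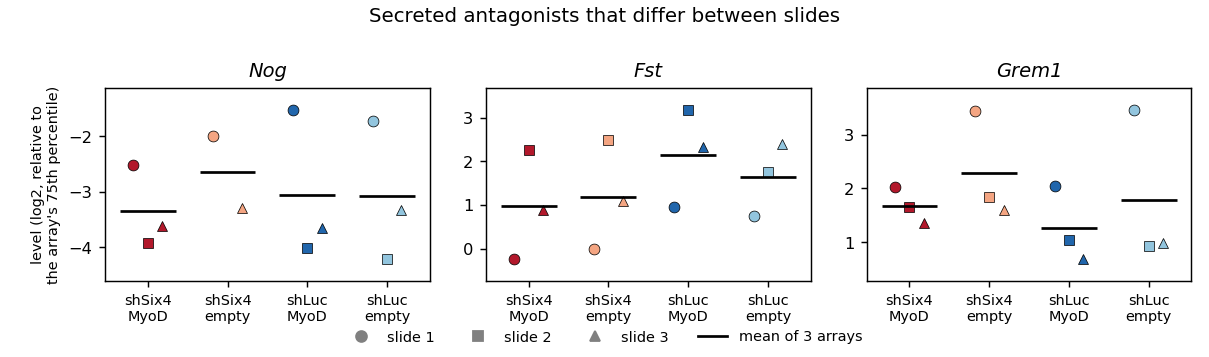
Levels of Nog, Fst and Grem1 on the arrays of the 4 groups, in log2 relative to the array's 75th percentile. Circles, squares and triangles are slides 1, 2 and 3, and bars are group means. Circles lie highest in every group for Nog and Grem1 and lowest in every group for Fst, and Nog has no point for shSix4 empty vector on slide 2.

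Of the 6 Smads, 5 were tested, and none passed with MyoD in either line or fit. By the probes reported, Smad3, a transducer of TGF-beta and activin, had the largest difference in each line. It was 0.19 ± 0.27 in shSix4 cells (adjusted p = 0.988, 0.662 with the block) and 0.53 ± 0.27 in shLuc cells (0.332, 0.112 with the block). Smad3 was at 1.33, 1.36 and 1.48 in shLuc MyoD cells and 1.04, 0.20 and 1.35 in shLuc empty-vector cells. The widest gap by far was thus on slide 2. This ranking depended on the probe. Further probes gave 0.37 for Smad3 and -0.43 for Smad4 in shSix4 cells. In shLuc cells they gave 0.53 for Smad3, -0.11 for Smad4, and -0.57 and 0.001 for Smad5. Smad4, the partner shared by all these Smads, was lower in shLuc MyoD cells than in shLuc empty-vector cells on each slide with no overlap, by -0.35 ± 0.17 (0.290, 0.0709 with the block). For 5 of 5 Smads in shSix4 cells and 3 of 5 in shLuc cells, the 95% interval of the MyoD difference lay within 2-fold.

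The inhibitory Smads Smad6 and Smad7 passed neither fit with MyoD, with the larger differences for Smad6, -0.39 ± 0.49 in shSix4 cells and -0.46 ± 0.49 in shLuc cells. The ubiquitin ligases, which mark Smads and receptors for breakdown, passed with the block in 1 line each. Smurf1 was at 0.55, 1.25 and 1.22 in shSix4 MyoD cells, 0.77, 1.32 and 1.51 in shSix4 empty-vector cells, 0.17, 0.78 and 0.68 in shLuc MyoD cells, and 0.63, 0.99 and 1.23 in shLuc empty-vector cells. It differed by -0.41 ± 0.28 in shLuc cells (adjusted p = 0.489, 0.0307 with the block) and -0.19 ± 0.28 in shSix4 cells (0.991, 0.360 with the block). The shLuc value was -0.22 without replicate 1 of the MyoD cells and -0.27 without replicate 3 of the empty-vector cells.

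Smurf2 was at -0.79, 1.20 and 0.50 in shSix4 MyoD cells, 0.53, 1.71 and 1.24 in shSix4 empty-vector cells, -0.35, 1.10 and 0.69 in shLuc MyoD cells, and 0.24, 1.17 and 1.65 in shLuc empty-vector cells. Both Smurfs were lower with MyoD on all 3 slides in each line while their groups overlapped. Smurf2 differed by -0.85 ± 0.56 in shSix4 cells (0.790, 0.0468 with the block) and -0.54 ± 0.56 in shLuc cells (0.676, 0.104 with the block). The shSix4 value was -0.31 without replicate 1 and -1.30 without replicate 2 of the MyoD cells. All 4 genes of this role were below 0 in shLuc cells, as were 7984 of the 12300 genes tested.

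The latent TGF-beta binding proteins, which tie latent TGF-beta to the matrix, passed neither fit with MyoD. Ltbp1 had the largest difference in shLuc cells, -0.54 ± 0.20 (adjusted p = 0.169, 0.0614 with the block), and Ltbp4 in shSix4 cells, 0.41 ± 0.61 (0.991, 0.127 with the block). A second probe of Ltbp1 gave -0.03 in shLuc cells.

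Between the lines, the members other than Gdf6 showed few differences. With MyoD, 0 of 40 members were called without the block and 3 with it, where 0.228% and 4.33% of all genes were called; at an unadjusted limma p under 0.05 there were 3 members, against 7.8% of all genes, and 4 with empty vector, against 4.45%. The 3 called with the block were Gdf6 and Smad1, lower in shSix4 cells, and Tgfbr2, higher. With empty vector, 1 of 40 was called in each fit, Gdf6, where 0.0569% of all genes were called without the block and 0.642% with it. The median member difference was 0.09 with MyoD and 0.02 with empty vector, against 0.03 and -0.03 over all genes. The 95% interval lay within 2-fold for 19 of 40 members with MyoD and 23 of 40 with empty vector.

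Smad1, a transducer of BMP signals, was at 1.42, 2.19 and 1.68 in shSix4 MyoD cells, 1.21, 2.28 and 1.79 in shSix4 empty-vector cells, 1.93, 2.69 and 2.36 in shLuc MyoD cells, and 1.73, 2.34 and 2.20 in shLuc empty-vector cells. It differed by -0.56 ± 0.32 with MyoD (adjusted p = 0.838, 0.0368 with the block) and by -0.33 ± 0.32 with empty vector (0.999, 0.259 with the block). With a normexp background the difference with MyoD was -0.32. It was lower in shSix4 cells on all 3 slides with either vector, although the groups overlapped. Tgfbr2 was 0.71 ± 0.45 higher in shSix4 cells with MyoD (0.881, 0.0424 with the block) and differed by 0.38 ± 0.45 with empty vector (0.999, 0.313 with the block), where slide 1 ran the other way (-0.13). The difference with MyoD was 0.44 without replicate 1 of the shLuc MyoD cells and 1.10 without replicate 1 of the shSix4 MyoD cells.

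By role, the largest line difference among the members not called was seen for Tgfb2 among ligands with each vector. Tgfb2 was at -0.73, 0.72 and 0.35 in shSix4 MyoD cells and -0.16, 0.72 and 0.61 in shSix4 empty-vector cells, against 0.37, 1.04 and 0.79 in shLuc MyoD cells and 0.97, 1.60 and 1.11 in shLuc empty-vector cells. It differed by -0.62 ± 0.38 with MyoD and -0.84 ± 0.38 with empty vector, below 0 on all 3 slides each time, with an adjusted p of 0.873 and 0.999 (0.0934 and 0.0798 with the block). Fst differed by -1.18 ± 0.80 with MyoD (0.916, 0.0864 with the block). Ltbp1 differed by 0.77 ± 0.20 with MyoD and 0.60 ± 0.20 with empty vector, with no overlap either time (0.182 and 0.834, 0.0532 and 0.196 with the block). Among receptors, Tgfbr3 differed by 0.57 ± 0.21 with MyoD (0.435, 0.110 with the block), a difference that turned to -0.62 with a normexp background. Among Smads, Smad3 differed by 0.42 ± 0.27 with empty vector (0.999, 0.410 with the block), where replicate 2 of the shLuc empty-vector cells was low at 0.20. Among the inhibitory proteins, Smurf1 differed by 0.47 ± 0.28 with MyoD (0.864, 0.0546 with the block). Groups did not overlap for 3 members higher and 2 lower in shSix4 cells with MyoD, where 6% and 6.09% of all genes did so, and for 1 higher and 3 lower with empty vector, where 3.3% and 5.07% did.

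**Figure D4:**
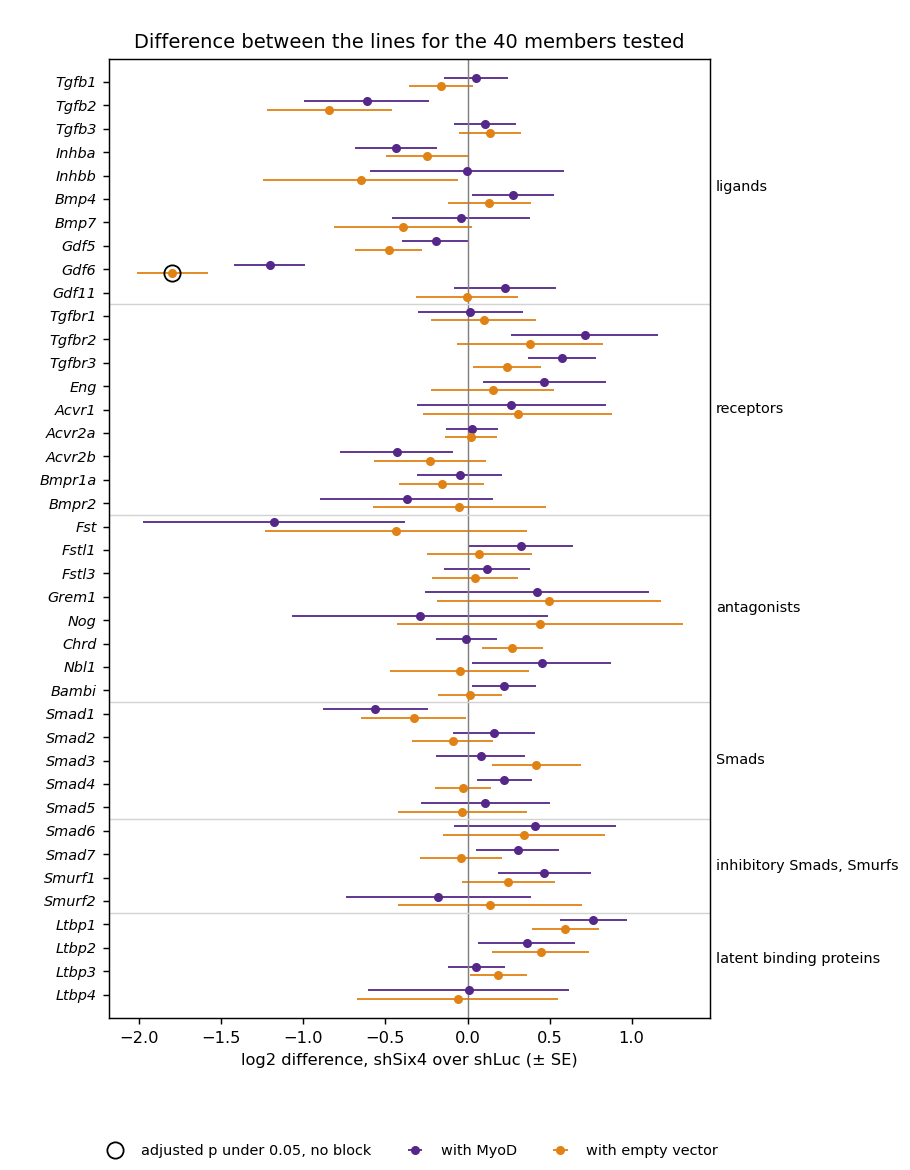
Difference between shSix4 and shLuc cells for the 40 members tested, in log2, ordered by role, with MyoD in purple and with empty vector in orange. Points are fitted differences, bars are 1 standard error and the ring marks the 1 call made without the block, Gdf6 with empty vector at -1.80. With MyoD, Gdf6 lies at -1.20 and Fst at -1.18, and the error of Fst is the wider of the pair.

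The response to MyoD was not shown to differ between shSix4 and shLuc cells for any member. In that test 0 of 40 members were called in either fit, as were 0% of all genes, and 0 members had an unadjusted limma p under 0.05 (2.02% of all genes). The differences ran from -0.74 ± 1.13 for Fst to 0.65 ± 0.84 for Inhbb, with a median of 0.12 against 0.07 over all genes. The 95% interval lay within 2-fold for 14 of 40 members.

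The 7 members that were not tested were Bmp2, Bmp6, Gdf10, Mstn, Acvr1b, Bmpr1b and Smad9. Bmp2 and the type I receptor genes Acvr1b and Bmpr1b were not well above background on any array, Bmp6 and Gdf10 were on 1 array each, and Smad9 was on 3. Mstn, which encodes myostatin, a ligand made by muscle that limits its growth, was above background on 1 of 3 arrays in each MyoD group and 0 of 6 empty-vector arrays. It was at -4.38, -8.47 and -8.36 in shSix4 MyoD cells, -7.09, -7.81 and -7.87 in shSix4 empty-vector cells, -4.51, -6.36 and -6.01 in shLuc MyoD cells, and -8.03, -7.57 and -8.50 in shLuc empty-vector cells. Replicate 1 on slide 1 was the highest in each MyoD group. With no filter on dim probes, none of the 7 was called in any of the 5 comparisons, and the lowest adjusted p was 0.0796.

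Genes outside the 47 that belong to the same pathway included larger MyoD changes than those of the members. Of 65 further components, 43 were tested. In shSix4 cells 3 rose and 0 fell, and in shLuc cells 3 rose and 1 fell, without the block (2.79% and 0.106% of all genes rose and fell in shSix4 cells, 4.72% and 1.56% in shLuc cells). The genes that rose were Itgb6, Hjv and Chrdl2 in each line, and the gene that fell was Htra1. Itgb6, Hjv and Chrdl2 passed the filter on dim probes only through the MyoD groups, where they were bright. Their place in these counts is therefore not independent of the filter, and no p-value is given for their rise. With the block, 4 rose and 1 fell in shSix4 cells, and 5 rose and 7 fell in shLuc cells (5.7% and 2.6% of all genes in shSix4 cells, 9.89% and 15.7% in shLuc cells). These included Itgb6, Hjv and Chrdl2 in each line and Htra1 in shLuc cells. The further genes that rose with the block were Thbs1 in each line and Gdf1 in shLuc cells, and the gene that fell in shSix4 cells was Rgma, all named after their values were seen.

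Itgb6, a subunit of an integrin that activates latent TGF-beta, was at 0.80, -0.23 and 0.53 in shSix4 MyoD cells, -5.13, -5.10 and -5.34 in shSix4 empty-vector cells, 1.22, 0.63 and 1.22 in shLuc MyoD cells, and -5.64, -6.15 and -5.88 in shLuc empty-vector cells. It rose by 5.56 ± 0.28 in shSix4 cells and 6.92 ± 0.28 in shLuc cells, and was above background on 2 of 3 arrays in each empty-vector group. Hjv, or hemojuvelin, a BMP co-receptor known in liver and skeletal muscle, was above background on all MyoD arrays and no empty-vector array. Hjv was at 0.41, -1.19 and -0.02 in shSix4 MyoD cells and 2.38, 1.13 and 1.22 in shLuc MyoD cells. It was at least 34.7-fold higher with MyoD in shSix4 cells and at least 185-fold higher in shLuc cells.

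Chrdl2, a chordin-like BMP-binding protein, was likewise not above background on any empty-vector array, and was at -2.79, -2.81 and -2.11 in shSix4 MyoD cells and -1.63, -1.44 and -1.09 in shLuc MyoD cells. It was at least 7.03-fold higher with MyoD in shSix4 cells and at least 23.8-fold higher in shLuc cells. These bounds set the MyoD mean against the lowest signal that counted as above background in the empty-vector cells. Htra1, a secreted protease, fell by 0.92 ± 0.21 in shLuc cells (adjusted p = 0.0273) and differed by -0.46 ± 0.21 in shSix4 cells (0.543). With MyoD, Hjv and Chrdl2 differed by -1.84 ± 0.45 and -1.19 ± 0.29 between the shSix4 and shLuc lines (0.149 and 0.146, 0.0318 and 0.0532 with the block). None of the 43 was called between the lines without the block, and with it Hjv and Htra3 were called lower in shSix4 cells with MyoD and Htra3 with empty vector.

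Of 27 target genes of TGF-beta and BMP signalling, all were tested. With MyoD, 4 rose and 0 fell in shSix4 cells, and 5 rose and 1 fell in shLuc cells, without the block (2.79% and 0.106% of all genes in shSix4 cells, 4.72% and 1.56% in shLuc cells). With the block, 7 rose and 2 fell in shSix4 cells, and 8 rose and 5 fell in shLuc cells (5.7% and 2.6% of all genes, 9.89% and 15.7%). The p-values of the target genes named next are from the fit without the block. Klf10, an early TGF-beta response gene, rose by 1.47 ± 0.22 in shSix4 cells (adjusted p = 0.00261) and 1.63 ± 0.22 in shLuc cells (0.00079). Hey1, a Notch and BMP target, rose by 2.14 ± 0.32 in shSix4 cells (0.00261) and 2.84 ± 0.32 in shLuc cells (0.000197). Cdkn1a, a cell cycle inhibitor which MyoD is also known to raise, rose by 0.90 ± 0.20 in shSix4 cells (0.0365) and 1.34 ± 0.20 in shLuc cells (0.00173).

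Skil, a Smad-bound repressor, rose by 1.06 ± 0.23 in shSix4 cells (0.0277) and differed by 0.81 ± 0.23 in shLuc cells (0.0639). In shLuc cells Id2 rose by 0.93 ± 0.24 (0.0426), Junb rose by 0.78 ± 0.20 (0.0412) and Snai2 fell by 1.20 ± 0.27 (0.0245) on the log2 scale. In shSix4 cells these differed by 0.72 ± 0.24, 0.55 ± 0.20 and -0.43 ± 0.27, with adjusted p-values of 0.225, 0.288 and 0.772. With the block, Skil also passed in shLuc cells (0.0128) and Id2 in shSix4 cells (0.0178). None of the 27 was called between the lines in either fit. Several of these genes are also switched by other pathways, and their median MyoD difference was 0.38 in shSix4 cells and 0.06 in shLuc cells, against -0.06 and -0.14 over all genes.

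The Id genes, which encode inhibitors of MyoD and are well known BMP targets, were mostly not called. Id2 passed in shLuc cells, and with the block in each line, while Id1, Id3 and Id4 passed in neither line in either fit. Id1 was at 4.09, 3.74 and 3.65 in shSix4 MyoD cells, 4.25, 2.97 and 3.12 in shSix4 empty-vector cells, 4.33, 4.08 and 4.01 in shLuc MyoD cells, and 4.08, 3.61 and 3.42 in shLuc empty-vector cells. Its groups overlapped, and it differed by 0.38 ± 0.32 in shSix4 cells (adjusted p = 0.896) and 0.44 ± 0.32 in shLuc cells (0.518). Id3 differed by -0.11 ± 0.30 in shSix4 cells and -0.11 ± 0.27 in shLuc cells (0.997 and 0.886), with no value for replicate 2 of the shSix4 empty-vector cells. Id4 differed by -0.22 ± 0.59 in shSix4 cells and -0.53 ± 0.59 in shLuc cells (0.997 and 0.694). The TGF-beta target Ccn2 differed by 0.51 ± 0.38 in shSix4 cells (0.848) and by 0.06 ± 0.38 in shLuc cells (0.960).

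**Figure D5:**
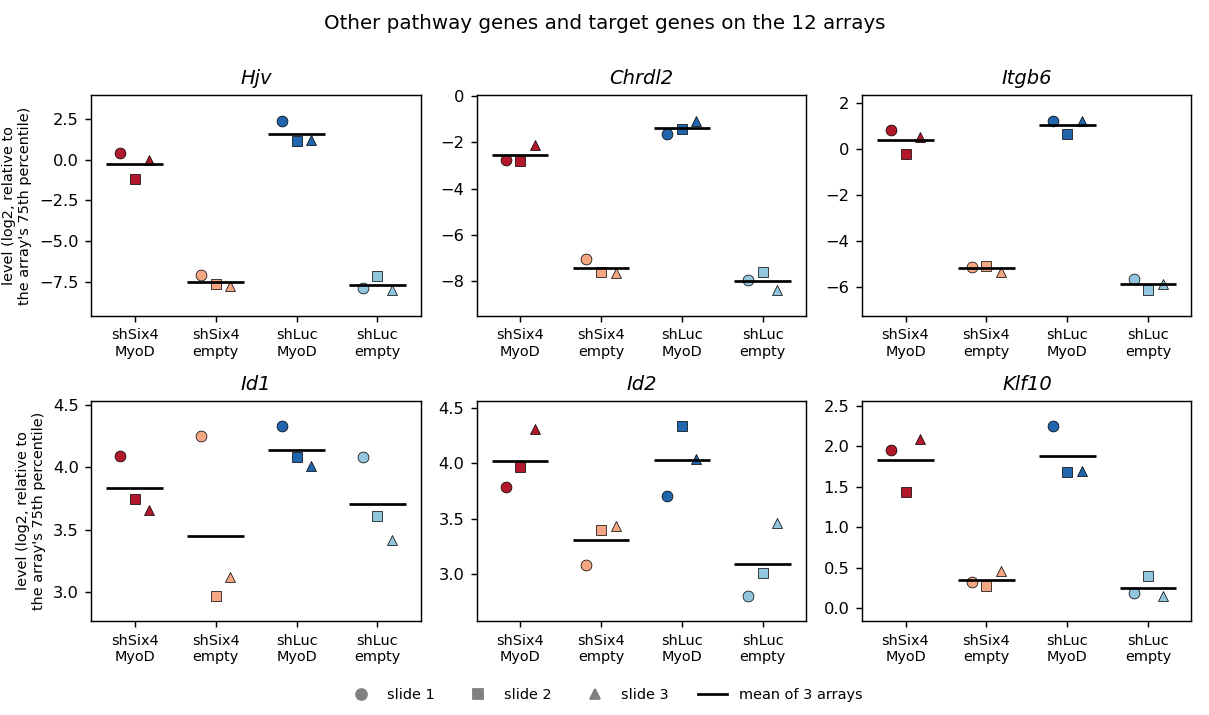
Levels of the pathway components Hjv, Chrdl2 and Itgb6 and of the target genes Id1, Id2 and Klf10 on the 12 arrays, in log2 relative to the array's 75th percentile. Circles, squares and triangles are slides 1, 2 and 3, and bars are group means. MyoD arrays lie clear of empty-vector arrays for the 3 components and Klf10, while the groups overlap for Id1.

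Where a member had further probes bright enough to use, 12 probes of 11 genes, these mostly ran the same way as the probe reported. The sign was shared by 11 of 12 with MyoD in shSix4 cells, 9 of 12 with MyoD in shLuc cells, 7 of 12 between the lines with MyoD and 9 of 12 between the lines with empty vector. No further probe differed from the reported probe by more than 1 on the log2 scale.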

How the data were processed

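RNA of 4 groups of 3 samples was hybridised to single-colour Agilent arrays. The deposited intensity values are background-corrected processed signals from Feature Extraction. Its version was 11.5.1.1 per the file headers, whereas the submitters' processing notes name 10.5.1.1. The authors also deposited normalized log2 values for 3891 probes, whose columns correlated with the matching arrays at r = 0.9993 to 0.9998 across probes; these were used as an alternative.

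Each array's 75th percentile was subtracted on the log2 scale, spots marked as outliers were left out, and spots of a probe were averaged. Probes well above background in at least 1 group, on each of its 3 arrays, were kept (24000 of 41174 probes, with 22318 to 27448 well above background per array), and the brightest kept probe stood for its gene. Probes were named by matching their RefSeq accession to a RefSeq table of GRCm38.p6. The number of arrays limits the precision. limma 3.58.1 in R 4.3.3 fitted group means over 12 arrays, with 8 residual degrees of freedom and Benjamini-Hochberg adjustment over 12300 genes, and was tested on simulated data with known changes.

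Replicate numbers matched the slide in the file headers. Deviations from the group means correlated at 0.278 to 0.819 across 12144 genes between samples of the same number (18 pairs). For different numbers they ran from -0.733 to 0.498, with a median of -0.545 (36 pairs). All pairs of replicate 1 with replicate 2 or 3 were negative. Pairs of replicate 2 with replicate 3 ran from -0.01 to 0.498 and overlapped the same-number range. The pairing by number was therefore clearest for slide 1 and less clear between slides 2 and 3. Each group held the same position on every slide, so position and group cannot be told apart. The members and the other gene lists were chosen with earlier results of these data known. Every member called in any comparison with or without the block, and Gdf6, is given by array, and the largest other change is named per role. Of the lists of target genes and further pathway components, the genes called without the block are named, with Id1, Id2, Id3 and Ccn2, and the marker lists are given by count and summed level; 1 further gene that the rule names is not reported here. The alternatives were other background corrections, normalization, filters, probe rules, samples in the fit, the block, and leaving out each array. The normexp alternative used the median spot signal in place of the mean signal that was planned.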

Additional observations from a re-analysis of the deposited data

Results flagged for a closer look

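Smad2, a transducer of TGF-beta and activin signals, was picked out because every slide moved one way with MyoD and the other way with empty vector. With MyoD it was at 0.71, 1.16 and 1.32 in shSix4 cells, against 0.70, 0.93 and 1.07 in shLuc cells, a difference of 0.16 ± 0.25. With empty vector it was at 0.73, 1.28 and 1.28 in shSix4 cells, against 0.77, 1.41 and 1.37 in shLuc cells, a difference of -0.09 ± 0.25. The limma test of the difference between these, 0.25 ± 0.35, did not pass (adjusted p = 1.00), and all 4 group ranges overlapped.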

How the results depend on the processing

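Gdf6 is the only member whose calls without the block depended on these choices, apart from Acvr2a. With MyoD in shSix4 cells, the count of members called was 1, and it was 0 with a normexp background, with only probes above background on all arrays (which leaves out the Gdf6 probe and 2 other members) and with only the groups compared (Gdf6 adjusted p = 0.0863); it stayed at 1 without any single replicate, with Gdf6 at 1.02 to 1.41. With MyoD in shLuc cells the count was 0, and 1 with plain background subtraction (Acvr2a); leaving out single replicates gave 0 to 0. Between the lines with MyoD the count was 0, and 1, Gdf6, with plain background subtraction (adjusted p = 0.0464), with the authors' deposited table of normalized values (0.0390) and with the mean of all kept probes (0.0436). Without single replicates it was 0 to 1, being 1 without replicate 1 of the shSix4 empty-vector cells (0.0263). Between the lines with empty vector the count was 1, and 0 with a normexp background, with no filter (0.0571), with only probes above background on all arrays and with only the groups compared (0.279), and 0 to 1 without single replicates. With the replicate block the counts were 5 and 12 with MyoD in shSix4 and shLuc cells, and 3 and 1 between the lines with MyoD and with empty vector. The count for the difference in MyoD response was 0 under every alternative. In all, 89 of these counts under alternatives were close to the reported count and 20 were not, and no called difference changed sign. The causes were not tested. Bmp7, Gdf6 and Tgfbr3 were tested although not above background on every array.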
